A study of Mus musculus with 8 samples.

Results

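Apoe, Fabp7, Dbi, Sparc, Glul, Ednrb, Ptprz1 and Hmgcs1 are 8 genes of satellite glia, and they were followed here across every cell cluster of a mouse dorsal root ganglion dataset. They were taken by name, 8 of the 9229 genes of the authors' deposited table, after their high values in the cluster called Unknown.2 had been seen. Their folds in that cluster are therefore descriptions, and so is every value below. The cells came from dorsal root ganglia of C57BL/6 mice aged 21 to 30 days, with all ganglia of 4 mice combined for each sample. Live dissociated cells were fed an antibody against the proteasome subunit B5, to mark the neuronal membrane proteasome (NMP), and were sorted into an NMP-positive population and an NMP-negative population. Each population is 1 library listed as 4 samples, so the design has no replicate library. Both populations share the strain, the ages, the labelling and the sort. The labels name a nuclei isolation protocol and a 10x Genomics Single Cell kit that reads transcript ends.

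The deposited results list genes by cluster and name no sample, so the NMP-positive and NMP-negative cells could not be compared for any gene. The table holds 56694 pairs of a gene and a cluster over 20 clusters, of which 10 carry names of neuron types, 3 are called Low.UMI and 7 are called Unknown. A pair gives the log2 fold change of a cluster against all other cells, the percentage of cells with the gene in the cluster and in all other cells, and an adjusted p. The p-values treat cells as replicates, and they served only as a filter: "higher" and "lower" mean an adjusted p below 0.05 in the authors' deposited table. The direction of a call is that of the log2 fold change and not of the percentage of cells. No listed pair in that table has an absolute log2 fold change below 0.25, an unadjusted p above 0.01 or fewer than 10% of cells with the gene on both sides. A gene not listed for a cluster is therefore not shown to be absent from it. UMI totals, cell numbers and barcodes were not analysed here, so the depth behind each percentage is unknown, and no interval is given.

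Satellite glia are the cells that wrap the cell body of each sensory neuron in a ganglion. They take up glutamate and potassium around the neuron, are coupled to each other by gap junctions, and hand lipids to the neuron they enclose. The genes followed here fall into 3 roles. Apoe, Fabp7, Dbi and Hmgcs1 carry or make lipids, Ednrb and Ptprz1 are receptors at the cell surface, and Glul and Sparc act on glutamate and on the matrix outside the cell.

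The cluster name Unknown.2 says nothing of a cell type, so the cluster was set against marker lists. Of 20 other satellite glia markers, 18 were in the authors' deposited table, and 18 of those 18 were higher in Unknown.2, with a median log2 fold change of 1.53, against −0.33 over all 3951 genes listed for the cluster. The glial membrane protein Ttyh1 stood at 2.98 and the secreted protease inhibitor Cst3 at 2.92, as log2 fold changes in the authors' deposited table. Gfap and Prss56 were the other two genes of the list and are not in the table.

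Neuron and endothelial markers were low in Unknown.2, and other lists were mostly not listed. All 10 neuron markers were lower there, with a median log2 fold change of −3.03, but they were still found in 7.4% to 68.3% of Unknown.2 cells in the authors' deposited table. Of 8 endothelial markers, 6 were listed and 6 were lower, in 0.6% to 6.7% of Unknown.2 cells in the authors' deposited table. Of 10 Schwann cell markers, 3 were listed, of which 2 were higher and 1 lower, in the authors' deposited table. The higher ones were the transcription factor gene Egr2, with a log2 fold change of 0.53, and the myelin gene Mbp, with 0.46 and 77.9% of Unknown.2 cells, in the authors' deposited table. Of 8 mural markers, 2 were listed and 2 lower, and of 8 fibroblast markers, 4 were listed and 3 lower, in the authors' deposited table. None of the 8 macrophage markers was listed for the cluster. Over all genes of the authors' deposited table, 27.4% were called lower in Unknown.2, so the mural, Schwann and macrophage counts are not above that share. By a fit to the deposited percentages, Unknown.2 held 8.98% of all cells and the 10 named neuron clusters together 40.8%.

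All 8 genes were higher in Unknown.2 in the authors' deposited table, where 13.0% of all 9229 genes were called higher. Since the genes were picked on that contrast, nothing is read from the count. Across all clusters, the authors' deposited table lists 120 of the 160 possible pairs of these genes and a cluster, and 17 of them are higher, 73 lower and 30 not past the filter. None of the 8 genes was higher in a named neuron cluster, where the authors' deposited table calls higher 12.5% of all genes in SST, LTMR and CGRP-a, 12.6% in Heat.sen, 11.3% in CGRP-z, 11.0% in Cold.sen, 9.86% in Non-peptidergic, 9.61% in CGRP-n, 7.05% in Peptidergic 488p and 9.77% in CGRP-e. The same was true of the Low.UMI clusters, where the authors' deposited table calls 10.9% of genes higher in Low.UMI.LTMR, 10.9% in Low.UMI.Nonpep and 10.8% in Low.UMI.Pep. In Unknown.2 0 of the 8 were lower, where 27.4% of all genes were, in the authors' deposited table. For every other cluster, all other cells include Unknown.2, on whose high values the genes were picked. Nothing is therefore read from these counts either.

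The other Unknown clusters shared some of the 8 genes. Unknown.1 had 2 of the 8 higher (Glul and Sparc) and 5 lower, where the authors' deposited table calls 18.0% of all genes higher and 28.8% lower. Unknown.5 had the same 2 higher and 4 lower, where the authors' deposited table calls 9.67% higher and 20.4% lower. Sparc alone was higher in Unknown.3 and in Unknown.6, with 5 and 2 of the 8 lower, where the authors' deposited table calls 8.05% and 7.39% of genes higher and 28.4% and 25.5% lower. Apoe was called lower by fold in Unknown.1, Unknown.5 and Unknown.6, yet was found in larger shares of their cells than elsewhere. These shares were 58.7%, 83.7% and 90.8%, against 50.1%, 50.1% and 50.2% of all other cells. The same held for Dbi in Unknown.5, at 78.9% against 64.7%. Unknown 488p had 1 of the 8 higher, Apoe, and 2 lower, where the authors' deposited table calls 9.91% higher and 33.0% lower.

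**Figure D1:**
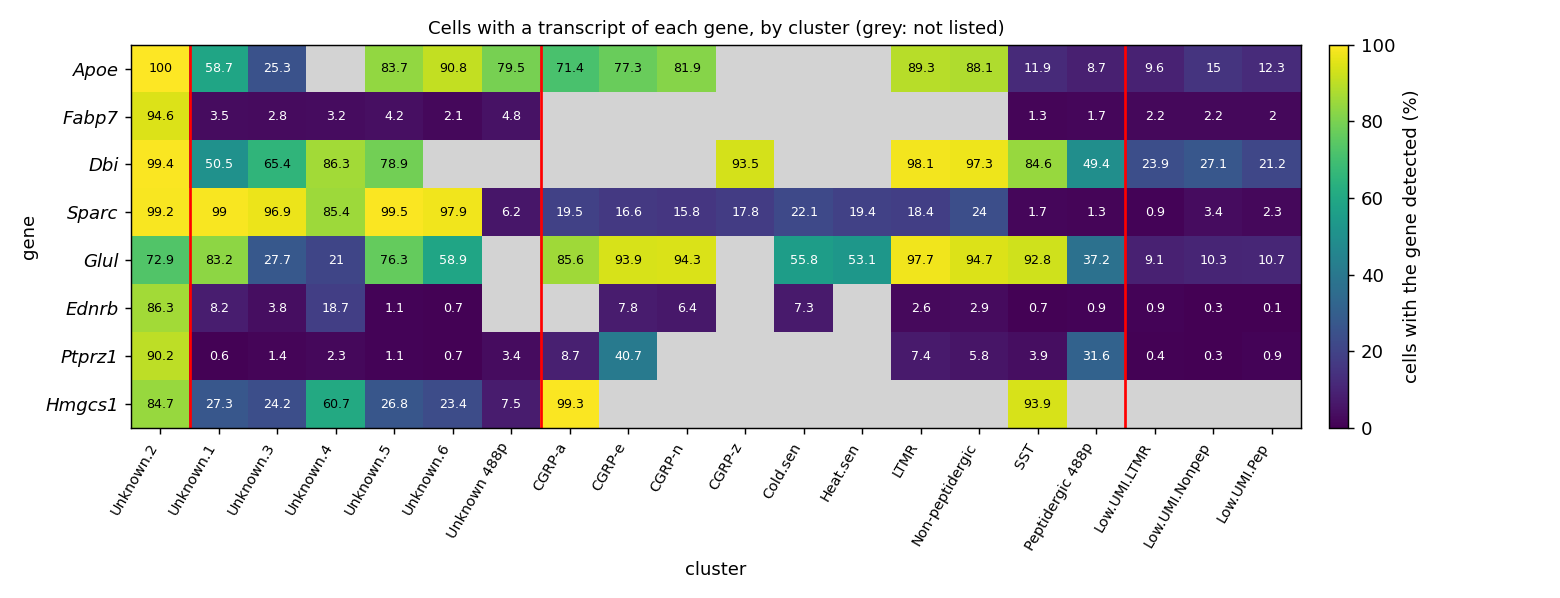
Percentage of cells with each of the 8 genes (rows) in each of the 20 clusters, as deposited by the authors. Every gene is found in at least 72.9% of Unknown.2 cells, while the named neuron clusters run from 0.7% for Ednrb in SST to 99.3% for Hmgcs1 in CGRP-a, and pairs the table does not list are grey.

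Apoe, the secreted lipoprotein component that carries cholesterol between cells, led the cluster. It ranked 1st by fold among the genes of Unknown.2, with a log2 fold change of 6.07 in the authors' deposited table. It was found in 100% of Unknown.2 cells and in 46.1% of all other cells of the authors' deposited table. In the named neuron clusters, the authors' deposited table gives Apoe in 71.4% of CGRP-a cells, 77.3% of CGRP-e, 81.9% of CGRP-n, 89.3% of LTMR and 88.1% of Non-peptidergic cells. The same column of the authors' deposited table falls to 11.9% in SST and 8.7% in Peptidergic 488p. The Low.UMI clusters were as low, with 9.6% in Low.UMI.LTMR, 15.0% in Low.UMI.Nonpep and 12.3% in Low.UMI.Pep in the authors' deposited table. Apoe was therefore found in most cells of 5 neuron clusters and in few cells of 5 others, and 3 named neuron clusters (CGRP-z, Cold.sen and Heat.sen) have no listed Apoe value.

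A high percentage of neurons with Apoe did not go with a high level. LTMR cells had Apoe in 89.3% of cells against 49.3% of all other cells, and yet a log2 fold change of −5.17, in the authors' deposited table. In Non-peptidergic cells the log2 fold change was −5.56 with Apoe in 88.1% of cells, again from the authors' deposited table. In both of these clusters the deposited p did not pass the filter. The fold in the authors' deposited table rests on mean levels and the percentage on whether any transcript was seen, so a cluster can be above the other cells in the second and below them in the first. Such a mismatch held for Apoe in 5 of the 7 named neuron clusters that list it, for Glul in 6 of 9, for Dbi in 4 of 5, for Ptprz1 in 2 of 6 and for Hmgcs1 in 2 of 2, and for Fabp7, Sparc and Ednrb in 0. The mismatch was common among genes in general in most neuron clusters. In LTMR 62.9% of all genes with a fold below 0 were found in a larger share of cells than elsewhere. The corresponding values were 51.3% in SST and 72.3% in CGRP-e. In Peptidergic 488p the mismatch was rare, at 7 of 1940 such genes (0.36%), and Ptprz1 was among them.

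Levels were set on a common scale from the deposited folds. Each cluster's level, with the pseudocount of the fold still in it, was divided by the mean over all cells. On this scale Apoe stood at 9.67 in Unknown.2 and at 0.0175 to 0.0973 in the 7 named neuron clusters. Its level in Unknown.2 was thus 99.4 times that of CGRP-a, the nearest, and 553 times that of Peptidergic 488p, the farthest, with a median of 336. Because the pseudocount is added to both sides, each such ratio is a lower bound on the ratio of the levels themselves, and so is each share of the summed level given for Unknown.2. Unknown.2 held 86.9% of the summed Apoe level of all cells, but only 17.6% of the cells in which Apoe was found. Outside it, Unknown 488p was the one other cluster with higher Apoe, with a log2 fold change of 1.74 and Apoe in 79.5% of its cells in the authors' deposited table, and a relative level of 3.20.

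**Figure D2:**
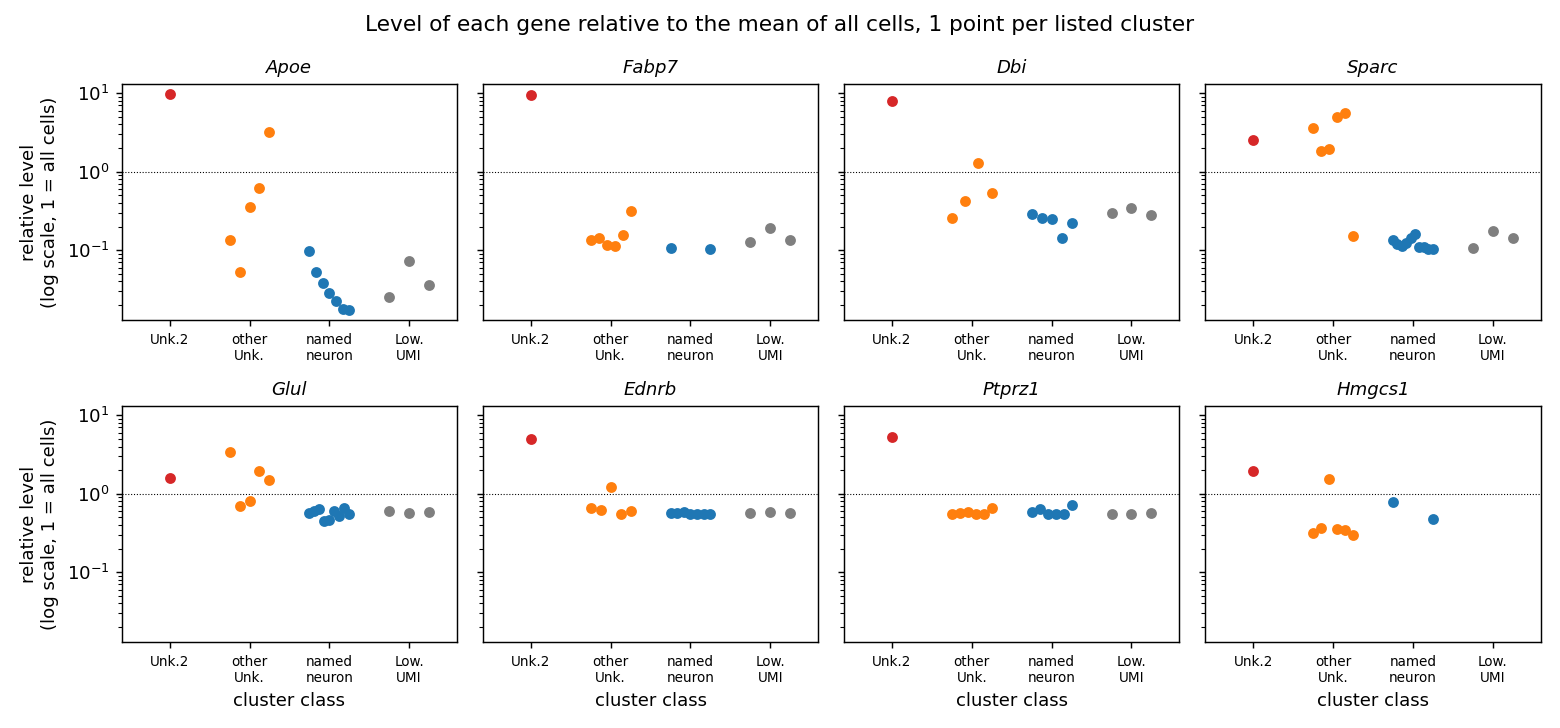
Level of each of the 8 genes in each listed cluster relative to the mean of all cells (log axis), with the pseudocount of the deposited fold included, which limits how low a point can lie. Apoe spans the widest range, at 9.67 in Unknown.2 and down to 0.0175 in neuron clusters, while Glul and Hmgcs1 span a much narrower one.

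Fabp7, the brain-type fatty acid binding protein of glia and their precursors, ranked 2nd by fold. Its log2 fold change in Unknown.2 was 6.02, and it was found in 94.6% of Unknown.2 cells and 8.1% of all other cells, in the authors' deposited table. In neurons the authors' deposited table lists it in only 2 clusters, at 1.3% of SST cells and 1.7% of Peptidergic 488p cells. The Low.UMI clusters held it in 2.0% to 2.2% of cells and the other Unknown clusters in 2.1% to 4.8%, in the authors' deposited table. The other 8 named neuron clusters have no listed Fabp7 value, and the percentage left for them by the totals was 18.4% as a weighted mean. Fabp7 was thus less frequent in SST and Peptidergic 488p than in the mean of the neuron clusters that are not listed. Unknown.2 held 53.7% of the cells with Fabp7 and 86.5% of its summed level, and its level was 90.5 times that of SST and 91.8 times that of Peptidergic 488p.

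The sequence before the Fabp7 start is shown because Fabp7 was in nearly all Unknown.2 cells and in few cells of both neuron clusters listed, and because CCAAT letters recur in it. It is the RefSeq window from 250 bases before to 50 after the start, on GRCm38.p6, chr10:57784673-57784972, plus strand. Capitals mark CCAAT on either strand, which appears as ATTGG, 2 times here.
Fabp7: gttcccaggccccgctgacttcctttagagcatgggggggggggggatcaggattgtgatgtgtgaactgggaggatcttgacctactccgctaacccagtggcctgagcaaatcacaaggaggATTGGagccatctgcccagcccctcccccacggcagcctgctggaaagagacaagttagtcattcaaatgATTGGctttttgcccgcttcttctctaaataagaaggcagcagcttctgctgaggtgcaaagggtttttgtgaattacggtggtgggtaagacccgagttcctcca
CCAAT or its reverse complement ATTGG was in 37.4% of the 32851 promoter windows of the same length. Among the 8 genes, 5 held it, namely Fabp7, Dbi, Glul, Ednrb and Hmgcs1, against 41.1% of 27025 genes. The letters ACAAAG or CTTTGT, a core bound by SOX factors, were in the Hmgcs1 window and in 1 of the 3 Apoe windows, so in 2 of the 8 genes, against 21.0% of 27025 genes. Both are descriptions of letters in a window and not of binding.

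Dbi, an acyl-CoA binding protein whose fragments act on GABA-A receptors, ranked 3rd by fold but was widespread. Its log2 fold change in Unknown.2 was 4.67, with Dbi in 99.4% of Unknown.2 cells and 61.7% of all other cells, in the authors' deposited table. In neurons, the authors' deposited table gives Dbi in 93.5% of CGRP-z, 98.1% of LTMR, 97.3% of Non-peptidergic, 84.6% of SST and 49.4% of Peptidergic 488p cells. The Low.UMI clusters had it in 21.2% to 27.1% of cells in the authors' deposited table. Apart from Unknown.2, Dbi was higher only in Unknown.4, with a log2 fold change of 0.37 in the authors' deposited table. The level in Unknown.2 was 27.5 times that of CGRP-z and 56.1 times that of SST, with a median of 31.6 over 5 neuron clusters, and Unknown.2 held 71.5% of the summed level. Of 10 genes for GABA-A receptor subunits and Dbi relatives in the authors' deposited table, 6 were listed in Unknown.2, and 6 were lower, with a median log2 fold change of −0.49. These included the receptor subunits Gabra2 at −0.59 and Gabrg3 at −0.53, as log2 fold changes in the authors' deposited table. Over all genes, 27.4% were called lower in Unknown.2.

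Hmgcs1, which makes HMG-CoA for the cholesterol pathway, was less distinctive. It ranked 306th by fold in Unknown.2, with a log2 fold change of 1.09, in 84.7% of Unknown.2 cells and 65.4% of all other cells, in the authors' deposited table. In both neuron clusters that list it, the share of cells was larger than in Unknown.2, at 99.3% in CGRP-a and 93.9% in SST, in the authors' deposited table. Its level was nevertheless in Unknown.2 2.46 times that of CGRP-a and 4.06 times that of SST. The other Unknown clusters ran from 7.5% in Unknown 488p to 60.7% in Unknown.4 in the authors' deposited table. Of 20 clusters, 11 have no listed value for Hmgcs1, and they hold 56.0% of all cells with a weighted mean of 71.9% of cells positive.

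The Hmgcs1 promoter is shown because it alone among the 8 genes held TCACCCCAC, the core of a sterol response element. The window is on GRCm38.p6, chr13:119690101-119690400, plus strand, from RefSeq. Capitals mark TCACCCCAC, 1 time, and CCAAT as ATTGG, 4 times; the motifs do not overlap.
Hmgcs1: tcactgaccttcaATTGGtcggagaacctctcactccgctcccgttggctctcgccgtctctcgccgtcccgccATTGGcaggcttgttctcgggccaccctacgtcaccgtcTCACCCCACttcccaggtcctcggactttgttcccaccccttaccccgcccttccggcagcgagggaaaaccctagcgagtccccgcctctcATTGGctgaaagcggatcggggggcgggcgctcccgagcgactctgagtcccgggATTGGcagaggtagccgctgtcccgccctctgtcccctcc
TCACCCCAC or its reverse complement was in 0.551% of the 32851 windows and in 0 of the 14 other cholesterol synthesis genes that matched a window. CCAAT or ATTGG was in 13 of those 14 genes. The absence of the exact sterol response letters says nothing of whether a sterol factor binds those genes.

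The other cholesterol genes were higher in Unknown.2 by small folds. Of 19 cholesterol synthesis genes, 12 were listed in Unknown.2, of which 11 were higher and 1 lower, with a median log2 fold change of 0.42, in the authors' deposited table. With an absolute log2 fold change of at least 1 also asked for, 1 was higher. The demethylase Cyp51 led with a log2 fold change of 1.14 and 70.5% of cells, in the authors' deposited table. Nsdhl at 0.77 and Msmo1 at 0.73 followed, as log2 fold changes in the authors' deposited table. Ebp, the sterol isomerase, was the one lower gene, at −0.27 on the log2 scale in the authors' deposited table. Of the 8 sterol regulation and uptake genes present, 5 were higher and 1 lower in the authors' deposited table, and 1 was higher with an absolute log2 fold change of at least 1. They included Insig1, the sterol-sensing brake on the pathway, with a log2 fold change of 0.72 in the authors' deposited table. Beside both lists, 13.0% of all genes were called higher and 27.4% lower in Unknown.2.

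Fatty acid handling genes showed larger folds. Of 13 such genes in the authors' deposited table, 8 were higher and 2 lower in Unknown.2, and the 11 listed genes had a median log2 fold change of 1.04. For this list and the lipid carriers below, the shares over all genes were 13.0% higher and 27.4% lower. The acyl-CoA synthetase Acsbg1 had a log2 fold change of 2.12 with 71.1% of Unknown.2 cells, and the desaturase Fads2 had 2.01 with 77.8%, in the authors' deposited table. The stearoyl-CoA desaturases Scd2 and Scd1 had log2 fold changes of 1.55 and 1.27 in the authors' deposited table. Among lipid carriers and exporters, 5 were higher and 2 lower of 10 in the authors' deposited table. With an absolute log2 fold change of at least 1, 1 was higher and 0 lower, and with detection in at least 25% of Unknown.2 cells, 3 were higher and 0 lower. These included the lipoprotein receptor Vldlr, with a log2 fold change of 1.35, and the cholesterol exporter Abca1, with 0.90, in the authors' deposited table. The carrier Apod had a log2 fold change of −3.11 in Unknown.2 in the authors' deposited table but was not past the filter.

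Ptprz1, a receptor-type phosphatase of glia, ranked 9th by fold. Its log2 fold change in Unknown.2 was 3.20, and it was found in 90.2% of Unknown.2 cells against 7.3% of all other cells, in the authors' deposited table. Neuron clusters differed widely: the authors' deposited table gives 8.7% of CGRP-a, 40.7% of CGRP-e, 7.4% of LTMR, 5.8% of Non-peptidergic, 3.9% of SST and 31.6% of Peptidergic 488p cells. CGRP-e and Peptidergic 488p thus stood apart from the other 4 listed neuron clusters. Both still counted as lower, with log2 fold changes of −0.66 and −0.50 in the authors' deposited table. The Low.UMI clusters had Ptprz1 in 0.3% to 0.9% of cells in the authors' deposited table. The level in Unknown.2 was 7.44 times that of Peptidergic 488p, the nearest neuron cluster, and 9.74 times that of Non-peptidergic cells, the farthest.

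Most ligands and partners of Ptprz1 were higher in the same cluster. Of 7 in the authors' deposited table, 5 were higher and 1 lower in Unknown.2, with a median log2 fold change of 1.04 among the 6 listed, and 3 were higher with an absolute log2 fold change of at least 1. The shares over all genes, without that fold limit, were 13.0% higher and 27.4% lower. The secreted ligand Ptn had a log2 fold change of 3.08 and was found in 98.0% of Unknown.2 cells in the authors' deposited table. The adhesion molecule Ncam1 had a log2 fold change of 2.48 with 97.5% of cells in the authors' deposited table. The second ligand, Mdk, was found in 62.0% of Unknown.2 cells and 8.8% of all other cells in the authors' deposited table.

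Ednrb, the type B endothelin receptor, ranked 15th by fold and was the rarest of the 8 genes over all cells, in 11.7%. Its log2 fold change in Unknown.2 was 3.01, with 86.3% of Unknown.2 cells and 4.4% of all other cells positive, in the authors' deposited table. The 7 listed neuron clusters held it in few cells in the authors' deposited table, at 7.8% in CGRP-e, 7.3% in Cold.sen, 6.4% in CGRP-n, 2.9% in Non-peptidergic, 2.6% in LTMR, 0.9% in Peptidergic 488p and 0.7% in SST. Unknown.4 had the next highest share after Unknown.2, 18.7%, with a log2 fold change of 0.30 that was not past the filter, in the authors' deposited table. Unknown.2 held 66.2% of the cells with Ednrb, the largest such share among the 8 genes. Of 5 endothelin system genes in the authors' deposited table, Ece1, which cuts the endothelin precursor, was higher in Unknown.2 and Ece2, a related protease, was lower. Over all genes, 13.0% were called higher and 27.4% lower in that cluster.

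Glul, the glutamine synthetase that turns glutamate into glutamine, did not single out the glial cluster. It ranked 502nd by fold in Unknown.2, with a log2 fold change of 0.78, in 72.9% of Unknown.2 cells and 54.4% of all other cells in the authors' deposited table. By percentage Unknown.2 ranked 9th among the 18 clusters listed, below LTMR at 97.7%, Non-peptidergic at 94.7%, CGRP-n at 94.3%, CGRP-e at 93.9%, SST at 92.8%, CGRP-a at 85.6%, Unknown.1 at 83.2% and Unknown.5 at 76.3%, in the authors' deposited table. Peptidergic 488p had Glul in 37.2% of cells and the Low.UMI clusters in 9.1% to 10.7% in the authors' deposited table. By level Unknown.2 ranked 3rd, after Unknown.1, whose log2 fold change was 2.20, and Unknown.5, at 1.02, in the authors' deposited table. The level in Unknown.2 was 2.47 times that of SST and 3.54 times that of Cold.sen, and Unknown.2 held 14.5% of the summed level. Of 7 glutamate and glutamine cycle genes in the authors' deposited table, 1 was higher and 2 lower in Unknown.2. Both counts are near the shares over all genes there, 13.0% higher and 27.4% lower, so nothing is read from them. The glial glutamate transporter Slc1a3 was higher, with a log2 fold change of 0.85, while the vesicular transporter Slc17a6 at −1.46 and the glutamine transporter Slc38a1 at −0.25 were lower, in the authors' deposited table.

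Sparc, a secreted matrix protein, was shared with other clusters and was the one gene of the 8 listed for all 20. Its log2 fold change in Unknown.2 was 1.57, with 99.2% of Unknown.2 cells and 29.0% of all other cells positive, in the authors' deposited table. It was higher in 6 clusters, and the highest log2 fold change was 2.63 in Unknown.6, followed by 2.48 in Unknown.5 and 2.32 in Unknown.1, in the authors' deposited table. Unknown.3 had Sparc in 96.9% of cells and Unknown.4 in 85.4%, whereas Unknown 488p had it in 6.2%, in the authors' deposited table. In neurons the authors' deposited table gives Sparc in 15.8% to 24.0% of the cells of 8 clusters, but in 1.7% of SST and 1.3% of Peptidergic 488p cells. The Low.UMI clusters, at 0.9% to 3.4% in the authors' deposited table, were near SST and Peptidergic 488p. Unknown.2 held 22.7% of the summed Sparc level, and its level was 15.6 to 24.4 times that of the neuron clusters. Among 10 genes of the Sparc family and its matrix partners in the authors' deposited table, 4 were higher and 3 lower in Unknown.2, and the lower share is near the 27.4% of all genes. With an absolute log2 fold change of at least 1, 1 was higher and 1 lower. The secreted proteoglycan gene Spock2 had a log2 fold change of −2.33, and Sparcl1, the closest relative of Sparc, was higher and found in 94.2% of Unknown.2 cells, in the authors' deposited table.

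**Figure D3:**
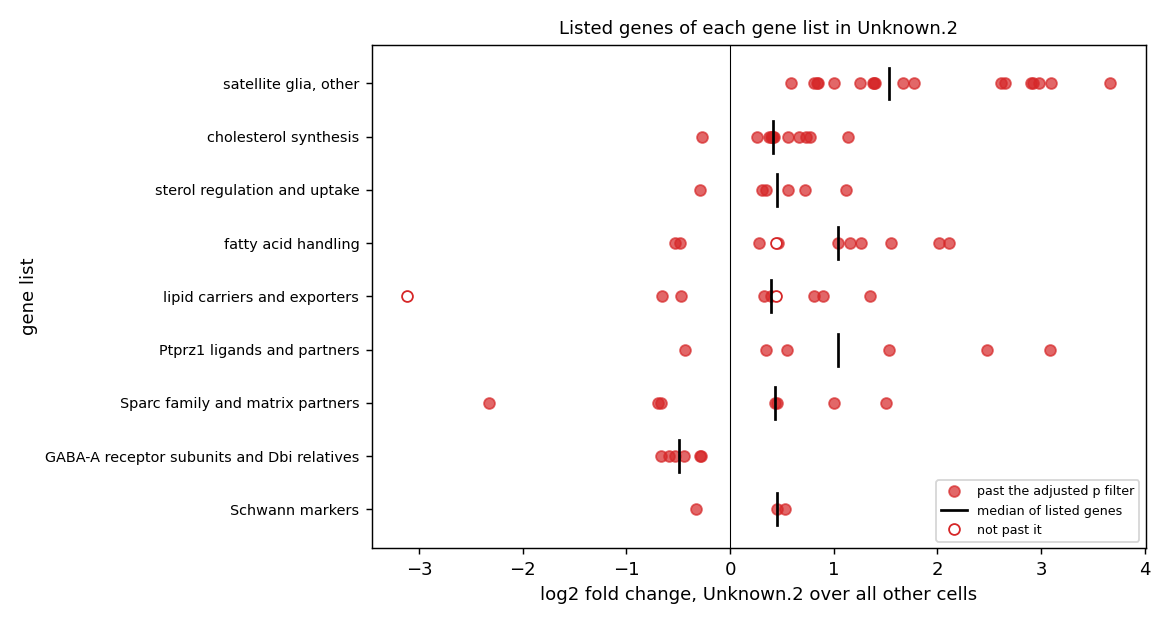
Log2 fold changes in Unknown.2 over all other cells, as deposited by the authors, for the listed genes of 9 gene lists (rows), with filled points past the adjusted p filter, open points not past it and a bar at each list's median. The 18 other satellite glia markers all lie above 0, with a median of 1.53, while the 6 genes of GABA-A receptor subunits and Dbi relatives all lie below 0, with a median of −0.49.

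SST and Peptidergic 488p had the most of these genes called lower among the named neuron clusters, each call being against all other cells and not against other neurons. Those other cells include Unknown.2, on whose high values the genes were picked, so nothing is read from the counts. In the authors' deposited table, SST had 8 of the 8 genes lower where 10.7% of all genes were called lower, and Peptidergic 488p had 7 of 8 where 13.8% were. These calls go by fold, and some of the genes were found in larger shares of cells than elsewhere. In SST these were Dbi (84.6% against 63.8% of all other cells), Glul (92.8% against 53.8%) and Hmgcs1 (93.9% against 65.4%). In Peptidergic 488p it was Ptprz1 (31.6% against 14.3%). In the Low.UMI clusters 7 of 8 were lower in each, against 20.1% of all genes in Low.UMI.LTMR, 21.0% in Low.UMI.Nonpep and 20.7% in Low.UMI.Pep, in the authors' deposited table. LTMR and Non-peptidergic each had 4 of 8 lower, against 8.46% and 9.71% of all genes, in the authors' deposited table. The counts were 3 in CGRP-e (background 5.65%), 2 in CGRP-n (4.32%), 2 in Cold.sen (5.44%), 1 in CGRP-a (7.26%), and 0 in CGRP-z (0.715%) and Heat.sen (1.18%), in the authors' deposited table.

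Set directly against the other named neuron clusters by percentage of cells, most of the 8 genes lay below in both clusters, but so did many other genes. Among genes listed in at least 3 of those other clusters, SST was below their range in 5 of 6 of the genes followed here, with Glul inside it. Over all 1450 genes so listed, SST was below in 49.5%. Peptidergic 488p was also below in 5 of 6, with Ptprz1 inside the range, while over all 1470 genes it was below in 80.9%, so its count was near that of genes in general. With the other satellite glia markers included, SST was below in 14 of 15 and Peptidergic 488p in 11 of 13. By level the order could differ, since Glul in SST, at 0.653 of the mean of all cells, was the highest of the named neuron clusters listed, and so was Ptprz1 in Peptidergic 488p, at 0.712. Most listed endothelial markers also lay below the other named neuron clusters. Flt1, Ly6c1, Cdh5 and Egfl7 did so in both clusters, and Pecam1 did so in Peptidergic 488p, at 1.7%. The exceptions were Pecam1 and Esam in SST, above and inside the range, and Esam in Peptidergic 488p, above it. Egfl7 was found in 1.1% of SST and 27.3% of Peptidergic 488p cells, against 33.3% to 88.1%, in the authors' deposited table. Flt1 was found in 0.4% of SST and 0.0% of Peptidergic 488p cells, against 2.9% to 5.8% in the other named neuron clusters listed, in the authors' deposited table. Pecam1 was found in 9.3% of SST cells, against 4.4% to 4.6%, and Esam in 23.4% of Peptidergic 488p cells, against 1.5% to 6.8%, in the authors' deposited table.

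Some neuron genes were found throughout both clusters. Uchl1 and Prph, both abundant in sensory neurons, were found in 100% of SST and 100% of Peptidergic 488p cells in the authors' deposited table. Other neuron markers were not. The 6 of 10 listed for SST were found in 61.8% to 100% of its cells, in the authors' deposited table. For Peptidergic 488p, 8 of 10 were listed, in 18.2% to 100% of its cells. Tac1 was the lowest in both clusters. Over the 1186 genes listed for both SST and LTMR, the mean percentage of positive cells was 59.6% in SST and 69.5% in LTMR. Over the 1293 genes listed for both Peptidergic 488p and LTMR it was 33.8% in Peptidergic 488p and 70.5% in LTMR. Peptidergic 488p thus had a lower mean share of positive cells over shared genes in general, and Snap25, a synaptic gene, was found in 51.1% of its cells in the authors' deposited table. How much this detection rate, or the library each cluster came from, contributes to the low glial percentages was not tested.

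The percentages were also turned into an expected number of transcripts per cell, the Poisson mean that leaves the observed share of cells without the gene, and divided by the value for Apoe in the same cluster. The ratio is a description of how 2 genes run together. For Sparc the ratio lay between 0.0896 and 0.213 over the 10 named neuron and Low.UMI clusters in which both genes are listed, with a median of 0.132. Over those clusters Sparc's own expected number differed 30.4-fold and Apoe's 24.6-fold, while the ratio differed 2.38-fold. SST at 0.135 and Peptidergic 488p at 0.144 lay inside the range. Within the 3 Low.UMI clusters the ratio differed 2.38-fold, Apoe's number 1.61-fold and Sparc's 3.83-fold. Over CGRP-a, CGRP-e, CGRP-n, LTMR and Non-peptidergic cells the ratio ran from 0.0910 to 0.173. Apoe's number ran there from 1.25 to 2.23 and Sparc's from 0.172 to 0.274. Within either group the ratio was thus no steadier than Apoe's number. For Fabp7 the ratio lay between 0.103 and 0.220 in the 5 named neuron and Low.UMI clusters listed, a 2.13-fold spread. Over those 5 clusters Fabp7's own number differed only 1.70-fold and Apoe's 1.79-fold, so the ratio was no steadier than either gene.

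The ratio to Apoe spread more widely for the other genes. For Ednrb it lay between 0.00762 and 0.0993 over 9 clusters. Dbi stood at 1.77 in LTMR and 1.70 in Non-peptidergic cells, but at 14.8 in SST and 7.48 in Peptidergic 488p. Glul stood at 1.38 to 1.89 in CGRP-a, CGRP-e, CGRP-n, LTMR and Non-peptidergic cells, at 20.8 in SST, at 5.11 in Peptidergic 488p and at 0.669 to 0.945 in the Low.UMI clusters. Ptprz1 reached 4.17 in Peptidergic 488p, 0.352 in CGRP-e and 0.314 in SST, and 0.0281 to 0.0727 in the other 3 named neuron clusters listed. Hmgcs1 stood at 3.96 in CGRP-a and 22.1 in SST. The SST values shrink when the percentages themselves are divided, to 7.80 for Glul, 7.89 for Hmgcs1 and 7.11 for Dbi. In the other Unknown clusters, most of which had higher Sparc by fold, the ratio of Sparc to Apoe ran from 0.0404 to 11.9. Empty droplets and doublets were not analysed here, no source used here states how doublets were treated, and the origin of any of these transcripts was not tested.

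**Figure D4:**
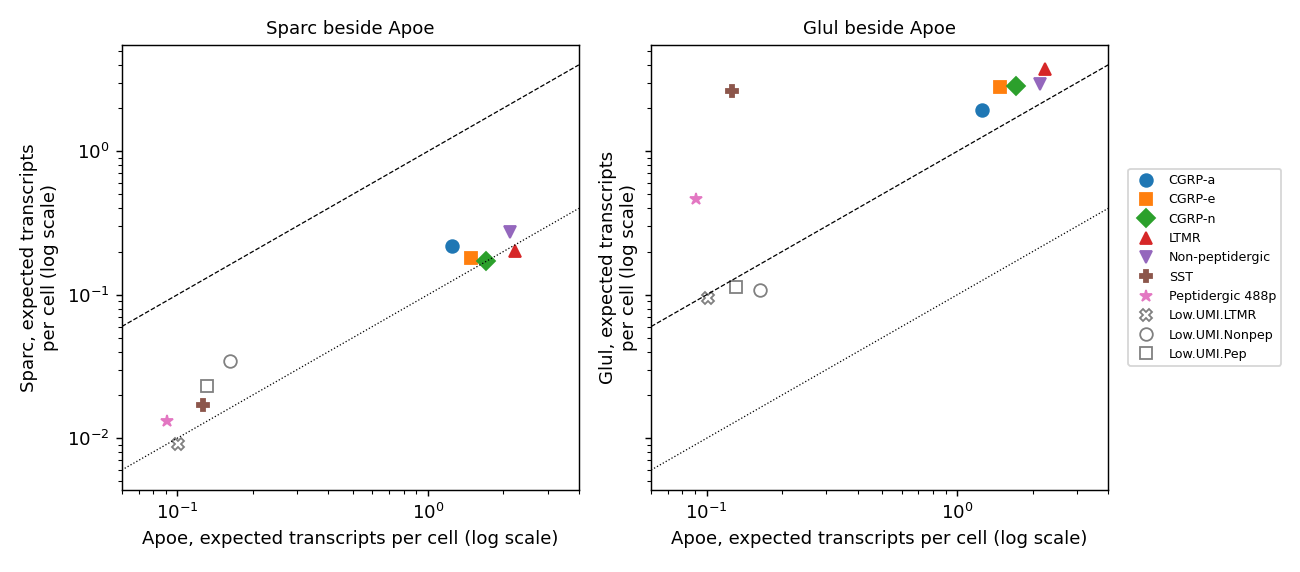
Expected transcripts per cell of Sparc (left) and Glul (right) against Apoe in the same cluster, on log axes, from the deposited percentages, with 1 marker per named neuron or Low.UMI cluster. The dashed line marks equal numbers and the dotted line a ratio of 0.1. The ratio of Sparc to Apoe runs from 0.0896 to 0.213, while that of Glul stands at 20.8 in SST and 5.11 in Peptidergic 488p, above its other clusters.

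Genes whose percentages ran most like these were sought over the clusters in which both were listed, at least 15 of 20. These correlations are descriptions over clusters of the same libraries. Apoe was most like Vim, an intermediate filament gene, with Pearson's r of 0.82 over 16 clusters, then Epb41l2 at 0.79 and Lama4 at 0.75 over 15 clusters each. Sparc was most like the basement membrane collagens Col4a1, at 0.99 over 19 clusters, and Col4a2, at 0.98 over 17, and then Prss23 at 0.97 over 16. Ednrb was most like Gpr37l1, a glial receptor, at 0.99 over 16 clusters, then Ttyh1 at 0.98 and Cmtm5 at 0.97 over 15 each. Ptprz1 also ran most like Gpr37l1, at 0.83 over 16 clusters, followed by Aspa and Cmtm5 at 0.79. Ednrb was found in 86.3% of Unknown.2 cells and in at most 18.7% of the cells of any other listed cluster. For Ptprz1 these shares were 90.2% and at most 40.7%. The r of both genes can therefore be set largely by Unknown.2, on whose high values the genes were picked, so nothing is read from its size. Glul was most like Reep3, at 0.95 over 16 clusters, followed by Calu and Chka at 0.93. Fabp7, Dbi and Hmgcs1 were each listed for fewer than 15 clusters, so no gene was sought for them.

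Unknown.4 was described by the same lists, as a second cluster with glial markers. Of the other satellite glia markers, 15 were listed there, with 10 higher and 2 lower and a median log2 fold change of 1.07, in the authors' deposited table. All 10 Schwann cell markers were higher there, with a median log2 fold change of 3.32 in the authors' deposited table. Of the 8 genes, 7 were listed for it and 2, Dbi and Sparc, were higher and 3 lower, where 5.21% of all genes were called higher and 26.4% lower, in the authors' deposited table. Of 19 cholesterol synthesis genes, 7 were listed for Unknown.4 and 7 were lower there, beside the 26.4% of all genes, in the authors' deposited table. In Unknown.2, 11 of the 19 were higher and 1 lower. Hmgcs1, which is not in that list, had a log2 fold change of 0.63 in Unknown.4 that was not past the filter, in the authors' deposited table.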

How the data were processed

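Single-cell RNA was measured in 2 sorted populations, NMP-positive and NMP-negative, of 1 library each, listed as 8 samples. The only processed data used were the authors' deposited marker table, made with Seurat per the submitters' processing notes; no source used here gives an aligner or a genome build. Its columns are the deposited log2 fold changes of each cluster against all other cells, the deposited fractions of cells with the gene, shown here as percent, and the deposited p-values and adjusted p-values. Count tables were not analysed here. The test behind the p-values is likewise given by no source used here.

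Cluster shares of all cells were solved by least squares from the deposited fractions of 6742 genes differing by at least 5 percentage points. The residual was 0.0274 points and the shares summed to 100.008%. Relative levels came from the folds and these shares. For the 34 genes listed in all 20 clusters they summed to 99.9989% to 100.014%. Scripts were tested on simulated data. A call is an adjusted p below 0.05. No test was run. Named genes were all 8 members, up to 4 genes of each list by absolute fold in Unknown.2, and the 3 most alike by correlation over at least 15 clusters; Ebp, Esam, Prph and Snap25 were chosen after their values were seen, and some genes the rule names are not reported here. The members and lists were chosen with earlier results of these data known. Promoters came from RefSeq on GRCm38.p6. Python 3.11.15, numpy 2.4.6 and pandas 2.3.3 were used. Alternatives were stricter filters, other gene minimums, another neuron set and the fraction itself.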

Additional observations from a re-analysis of the deposited data

How the results depend on the processing

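Of 104 recomputed values, 69 stayed within a tolerance of 1.5-fold for counts or 1 SD across clusters for ratios, and 35 moved. With an absolute log2 fold change of at least 1 asked for, 43 pairs of the 8 genes and a cluster were lower (73 without it), 1 cholesterol synthesis gene was higher in Unknown.2 (11 without it) and 0 were lower (1 without it). With the fraction itself in place of the Poisson mean, the median ratio of Sparc to Apoe over the named neuron clusters was 0.206 (0.129 with it). That of Hmgcs1 was 4.64 (13.0 with it), inside its tolerance because its 2 clusters lie far apart. The 16 recomputed shares of positive cells stayed within the spread of their estimate and the 7 level ratios without Peptidergic 488p within tolerance, and 31 of the 60 other list counts moved. The alternative with a pseudocount of 1 was not run, since the pseudocount cancels and levels cannot be solved. No paired analysis was possible because the table names no sample and each population is 1 library. The table's thresholds leave out small differences, and depth per cluster is unknown.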
